A study of Mus musculus with 15 samples.

Results

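The 53 genes described here are neighbours of *App* on mouse chromosome 16. They were taken by symbol from the genes within about 10 Mb on either side of *App*, with *App* itself left out, by a rule of position. All 53 symbols were found among the 55471 gene IDs of the count table. Of these, 51 had a level above 1 CPM (counts scaled to the total of the library) in at least 3 of the 15 libraries and were tested, among 16171 tested genes in all. *Chodl* and *Chaf1b* were below that level. The 53 genes are a selection, since 81 tested genes (65 of them protein-coding) lay within 10 Mb of *App*.

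Bulk RNA sequencing covered 5 groups of female mice aged 3 months, each with 3 libraries of whole hippocampal RNA. The first batch comprised WT mice, APP-TKI mice (homozygous for the *App* knock-in, App NL-G-F/NL-G-F) and DM mice (homozygous for the same knock-in and heterozygous for human *APOE4*, App NL-G-F/NL-G-F with Apoe4+/wt). The second batch comprised WT mice and ApoE4 mice (ApoE4+/wt, with both *App* copies wild type). The *App* knock-in therefore occurs only in batch 1, and each comparison was made within its batch. The *App* NL-G-F allele carries 3 groups of familial Alzheimer's disease mutations in a humanised amyloid-β sequence at the mouse locus. The study's text counts its replicates as mice, while the labels give only a library number. The p-values measure the spread between these libraries.

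A gene placed near an engineered allele is inherited together with it. Because a targeted allele is made in one line of embryonic stem cells, the chromosome on either side can also keep sequence of that line through many generations of breeding, which is why neighbours of a knock-in are often examined apart from the rest of the genome. The WT mice were C57BL/6JInv, the knock-in line was kept on a C57BL/6 background, and DM mice came from matings of APP-TKI with *APOE4* mice. Sequence variants around *App* were not analysed here. The stretch described is the mouse counterpart of much of the human chromosome that is present in an extra copy in Down syndrome. It holds the receptors for interferons, the superoxide dismutase *Sod1*, the kinase *Dyrk1a*, the oligodendrocyte factors *Olig1* and *Olig2* and the endocytic proteins *Synj1* and *Itsn1*.

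In the GRCm38 annotation, *App* lay on the minus strand at chr16:84949685-85173766. Of the 53 genes, 10 lay on the centromeric side and 43 on the telomeric side. *Hspa13*, a chaperone of the Hsp70 family, was the outermost on the centromeric side at -9.18 Mb from *App* (negative distances are centromeric). *Kcnj6*, a subunit of the GIRK potassium channels, was the outermost on the telomeric side at 9.57 Mb. The nearest were *Gabpa* (plus strand, chr16:84834925-84863779) at -0.0859 Mb and *Jam2* (plus strand, chr16:84774123-84825928) at -0.124 Mb on one side, and *Cyyr1* (minus strand, chr16:85421533-85553397) at 0.248 Mb and *Adamts1* (minus strand, chr16:85793827-85803113) at 0.620 Mb on the other.

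Promoter sequences from RefSeq (GRCm38.p6), each with 250 bases before and 50 after the start site, were found for 45 of the 53 genes. *Adamts5*, *Cxadr*, *Grik1*, *Hspa13*, *Il10rb*, *Jam2*, *Olig1* and *Rwdd2b* had no entry in the table. Those of 3 genes are printed 5′ to 3′ on the strand of the gene because the results below return to them: *Gabpa* as the nearest neighbour, *Adamts1* as the close neighbour with the smallest p, and *Btg3* as the gene with the smallest p of all. The positions are chr16:84834874-84835173 for *Gabpa* (plus strand), chr16:85803064-85803363 for *Adamts1* (minus strand) and chr16:78377132-78377431 for *Btg3* (minus strand). Capitals mark the letters CCGGAAG or their reverse complement CTTCCGG, a form of the site that GABP and other ETS factors recognise.
Gabpa: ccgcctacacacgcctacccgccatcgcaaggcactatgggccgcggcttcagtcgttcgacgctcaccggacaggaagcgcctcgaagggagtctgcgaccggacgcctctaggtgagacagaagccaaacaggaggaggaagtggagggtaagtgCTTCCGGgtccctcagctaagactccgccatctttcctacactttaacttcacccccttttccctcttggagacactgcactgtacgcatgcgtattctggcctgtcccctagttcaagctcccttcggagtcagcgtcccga
Adamts1: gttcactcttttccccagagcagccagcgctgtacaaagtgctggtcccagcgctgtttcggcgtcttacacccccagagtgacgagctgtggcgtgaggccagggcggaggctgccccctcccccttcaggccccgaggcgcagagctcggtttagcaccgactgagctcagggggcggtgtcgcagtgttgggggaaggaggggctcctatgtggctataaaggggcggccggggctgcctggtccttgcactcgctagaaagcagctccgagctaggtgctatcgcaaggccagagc
Btg3: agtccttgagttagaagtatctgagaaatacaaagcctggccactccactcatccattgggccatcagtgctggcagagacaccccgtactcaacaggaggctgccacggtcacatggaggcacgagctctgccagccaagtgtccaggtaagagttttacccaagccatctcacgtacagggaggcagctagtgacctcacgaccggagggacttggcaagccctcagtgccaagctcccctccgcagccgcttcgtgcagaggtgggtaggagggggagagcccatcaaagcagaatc

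The letters occurred once in the *Gabpa* window and in neither of the others. Both strands were searched, and they were found in the windows of 9 of the 45 genes (20.0%), namely *Gabpa*, *Usp16*, *Cct8*, *Urb1*, *Ifnar1*, *Gart*, *Donson*, *Setd4* and *Chaf1b*. The share was 16.5% over the 11614 tested genes with an entry and 8.86% over all 32851 promoters of the table. The 45 windows held a median of 26 CpG dinucleotides, against 20 in those of the tested genes and 7 in all. For the 45, the entry nearest the annotated 5′ end of the gene was taken, and for the tested genes the first listed. The sets are therefore not strictly alike. The 45 also include *Chodl* and *Chaf1b*, which were not tested. Some windows lay far from the annotated end, by 169070 bases for *Tiam1* and 113015 for *Samsn1*. A match of letters describes the sequence and is not a measurement of binding.

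Total counts per library ranged from 32754717 to 44630808, of which the 53 genes took between 0.410% and 0.435%. All 8 hippocampal neuron markers examined were detected, with summed levels of 3488 to 4081 CPM. In batch 1, 4 libraries (WT 1, APP-TKI 1, APP-TKI 2 and DM 1) had 2.65 to 2.88% of their counts in long noncoding genes and the other 5 had 2.16 to 2.32%. In batch 2 the share was 1.66 to 1.83%. Of the batch 2 libraries, WT 3 and ApoE4 1 had 1580 and 1880 CPM of choroid plexus markers against 47.9 to 98.5 CPM in the other 4, ApoE4 3 had 662 CPM of striatal markers against 69.3 to 107 CPM, and WT 3 had 297 CPM of thalamic markers against 66.1 to 136 CPM. For the members given library by library in ApoE4 mice, the range with each library left out is given beside the difference.

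The levels of the members spanned a wide range. Per kb of exon, which allows genes to be compared, the highest mean over the 15 libraries was 65.5 CPM per kb for *Ttc3*, a ubiquitin ligase, followed by 60.6 for *Synj1*, the synaptic phosphoinositide phosphatase, and 57.5 for *Cct8*, a subunit of the CCT chaperonin. These neighbours in the order were not separated by their libraries, which ran from 59.9 to 70.5 CPM per kb for *Ttc3*, from 56.5 to 63.3 for *Synj1* and from 49.6 to 65.4 for *Cct8*. *Olig1* (48.0 CPM per kb), *Sod1* (35.0), *Son* (34.4) and *Tmem50b* (34.0) came next, and these 7 genes stood in the top 10% of tested genes. At the other end, *Eva1c* (0.372 CPM per kb), *Samsn1* (0.293), *Cyyr1* (0.148), *Adamts5* (0.131) and *Runx1* (0.0955) stood in the bottom 10%. The total count of *Runx1* over all 15 libraries was 646 and that of *Ttc3* was 592001, so the precision differs between them. The median member stood at the 58.7th percentile of tested genes, and 29 of the 51 were above the median gene.

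**Figure D1:**
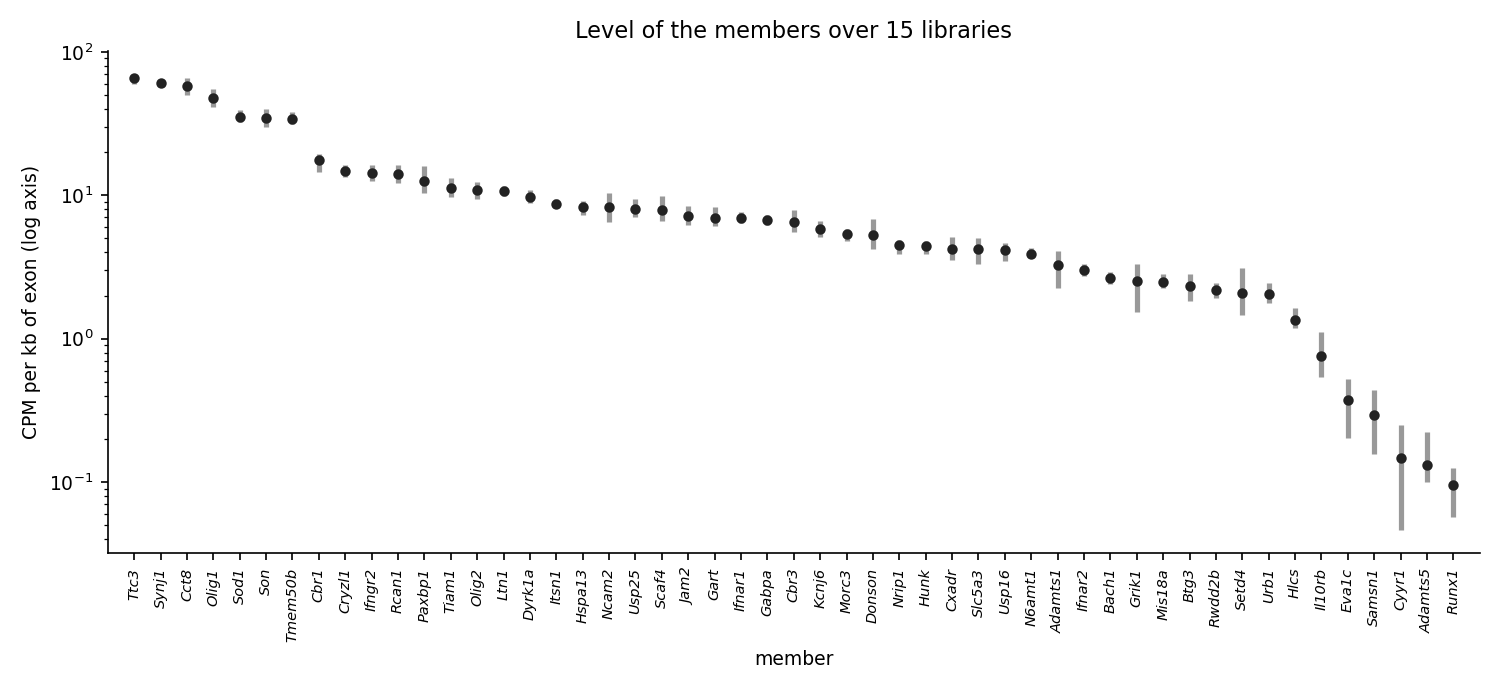
Level of each tested gene in CPM per kb of exon on a log axis, ordered from highest to lowest; points are means over 15 libraries and bars run from the lowest to the highest library. The range runs from 65.5 CPM per kb for *Ttc3* to 0.0955 for *Runx1*, and the bars of neighbouring genes overlap along most of the order.

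The first question was whether genes next to the knock-in differed between the 6 libraries with the knock-in (APP-TKI and DM) and the 3 WT libraries of the same batch. No member passed an adjusted p under 0.1 in edgeR's quasi-likelihood test, where 0.0309% of all tested genes (5 of 16171) did. An unadjusted p under 0.05 was found for 3 of the 51 members (*Adamts1*, *Btg3* and *Il10rb*), or 5.88%, beside 4.33% of all tested genes. The log2 fold change was above 0 for 26 members and below 0 for 25, with a median of 0.00, while that of all tested genes was 0.01. The single values ran from -0.23 for *Btg3* to 0.35 for *Il10rb*. For 45 of the 51 members the 95% interval of the log2 fold change lay wholly between -0.5 and 0.5, against 77.8% of all tested genes. Of the 81 tested genes within 10 Mb, members or not, 0 passed the adjusted threshold and 4 had an unadjusted p under 0.05. DESeq2 and the robust likelihood ratio test of edgeR also called 0 members in this comparison.

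*App* itself was at 1319, 1444 and 1411 CPM in the WT libraries, 1309, 1195 and 1310 in APP-TKI and 1275, 1402 and 1350 in DM. The difference of the knock-in libraries from WT was -0.09 on the log2 scale (95% interval -0.21 to 0.03; adjusted p = 0.9998 in edgeR's quasi-likelihood test).

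*Gabpa*, the nearest gene, encodes the DNA-binding subunit of the ETS factor GABP, which drives genes of the mitochondrial respiratory chain. It was at 40.3, 35.3 and 40.8 CPM in WT, 37.9, 40.9 and 35.1 in APP-TKI, and 40.6, 38.3 and 41.4 in DM, and the libraries of the 3 groups were interleaved. The log2 difference between knock-in and WT libraries was 0.01 with a 95% interval from -0.14 to 0.16. In batch 2, *Gabpa* ran from 35.1 to 36.8 CPM in WT and from 36.6 to 38.6 CPM in ApoE4. Exons of *Gabpa* share 397 bases with *Atp5j* on the opposite strand, and whether reads were counted by strand was not given in the sources used here.

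*Jam2*, a junctional adhesion molecule of endothelial and other barriers, was at 37.6, 41.8 and 39.2 CPM in WT, 39.6, 41.3 and 44.0 in APP-TKI, and 50.4, 39.7 and 44.9 in DM. The knock-in libraries reached higher and overlapped with WT, with a log2 difference of 0.13 (95% interval -0.03 to 0.30). The difference of DM from WT was 0.19 (95% interval -0.00 to 0.38; unadjusted p = 0.0519, adjusted p = 0.9999, edgeR's quasi-likelihood test). All 10 endothelial markers were tested, and their summed level was 60.9 to 68.8 CPM in WT, 56.4 to 64.9 in APP-TKI and 77.4 to 102 in DM. Their part in the values of *Jam2* was not tested. In bulk tissue, a change in the number of cells of a type and a change in RNA per cell cannot be told apart.

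*Cyyr1*, a small membrane protein rich in cysteine and tyrosine, was near the detection filter in batch 1. It was at 0.670, 0.894 and 0.997 CPM in WT, 0.410, 0.762 and 0.861 in APP-TKI, and 1.22, 0.859 and 0.916 in DM. The 3 groups overlapped, and the log2 difference of -0.05 had a wide 95% interval, from -0.65 to 0.55. In batch 2 it was at 2.13, 2.11 and 2.08 CPM in WT and 2.24, 1.69 and 1.86 in ApoE4. No test was made between the batches.

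*Adamts1*, a secreted metalloprotease that cleaves proteoglycans of the extracellular matrix, had the smallest p of the 4 nearest genes. It was at 15.6, 14.5 and 12.04 CPM in WT, 19.8, 16.6 and 16.2 in APP-TKI, and 18.1, 14.9 and 15.6 in DM. All 3 APP-TKI libraries were above the 3 WT libraries, and 2 of the 3 DM libraries fell within the WT range. The log2 difference of all knock-in libraries from WT was 0.26 ± 0.11 (SE; unadjusted p = 0.0304, adjusted p = 0.9998), and that of APP-TKI alone was 0.32 ± 0.12 (unadjusted p = 0.0229, adjusted p = 0.9998, edgeR's quasi-likelihood test). In batch 2 it was at 21.9, 18.8 and 20.8 CPM in WT and 21.7, 16.6 and 17.6 in ApoE4. *Adamts5*, the aggrecan-cleaving protease next to it, averaged 1.39 ± 0.269 CPM (SD, n = 3) in WT, 1.22 ± 0.0280 in APP-TKI and 1.27 ± 0.204 in DM, a log2 difference of -0.16 in the other direction (95% interval -0.60 to 0.28).

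**Figure D2:**
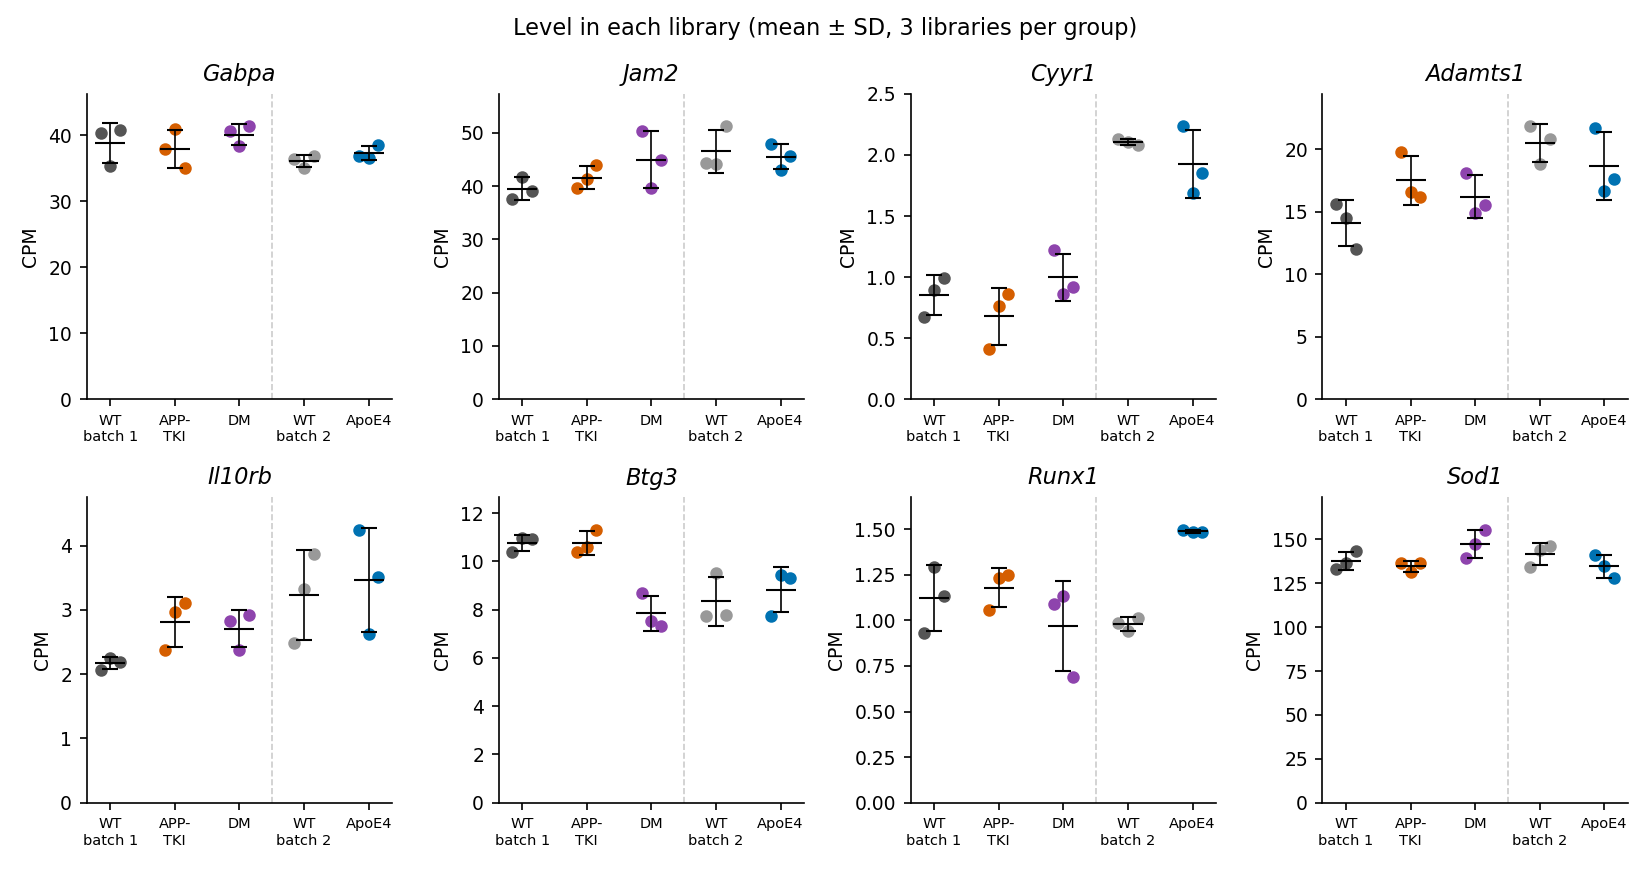
CPM of 8 genes in each library, by group; points are libraries, long ticks with bars are mean ± SD (n = 3), and the dashed line parts batch 1 from batch 2. *Gabpa*, *Jam2* and *Cyyr1* overlap between the groups of a batch, *Il10rb* is above WT in all 6 knock-in libraries of batch 1, *Btg3* is lower in DM at 7.30 to 8.68 CPM, and *Runx1* is at 1.484 to 1.497 CPM in ApoE4.

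The differences were then read by distance from *App*. Among the 10 members within 2.5 Mb the median log2 difference between knock-in and WT libraries was -0.00, and the median of its absolute size was 0.05. Among the 4 members between 2.5 and 5 Mb (*Ncam2*, *Bach1*, *Grik1* and *Tiam1*) these values were 0.12 and 0.12, and among the 37 members between 5 and 10 Mb they were -0.01 and 0.05. The 411 tested genes of chromosome 16 more than 10 Mb away had a median absolute size of 0.05. In ApoE4 mice, whose *App* copies are wild type, the median absolute log2 difference from WT was 0.04, 0.12 and 0.07 in the same 3 bins and 0.08 in the rest of the chromosome. In the middle bin the ApoE4 median with its sign was -0.12, opposite to that of the knock-in libraries, where all 4 genes were above 0. Of these, *Bach1* was at only 0.01, and the 95% interval of each of the 4 included 0 in the knock-in comparison. The 4 genes had the highest median size in both comparisons. These are descriptions across genes, which are not replicates.

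**Figure D3:**
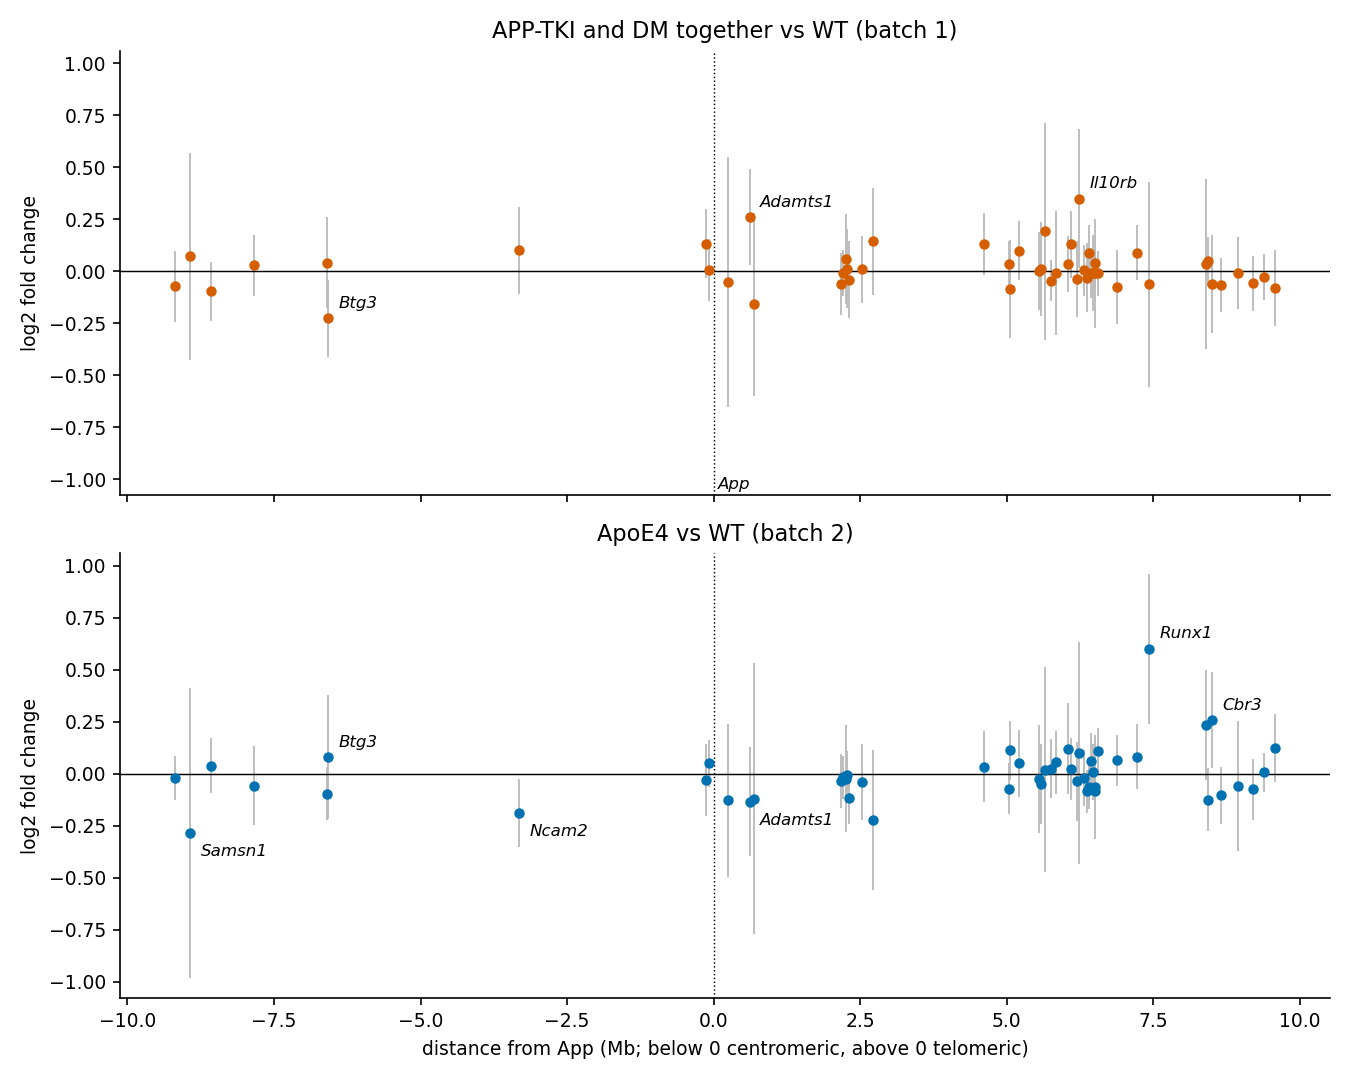
Log2 fold change of the 51 tested genes (points) with 95% intervals (bars) against distance from *App* in Mb, for APP-TKI and DM together against WT (upper panel) and for ApoE4 against WT (lower panel); the dotted line marks *App*. Points lie between -0.23 and 0.35 in the upper panel and between -0.29 and 0.60 in the lower. The 4 genes between 2.5 and 5 Mb are all above 0 in the upper, with a median of 0.12 and intervals that include 0. Their median is -0.12 in the lower.

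The cytokine receptor genes form a cluster between 6.20 and 6.37 Mb from *App*. *Ifnar1* and *Ifnar2* encode the receptor of type I interferons, *Ifngr2* a chain of the receptor of interferon gamma and *Il10rb* a chain shared by the receptors of interleukin-10 and related cytokines. *Il10rb* was the only member whose 6 knock-in libraries did not overlap the 3 WT libraries of batch 1, where this held for 2.54% of all tested genes. It was at 2.07, 2.25 and 2.19 CPM in WT, 2.37, 2.96 and 3.11 in APP-TKI, and 2.83, 2.38 and 2.92 in DM. The log2 difference was 0.35 ± 0.15 (SE; 95% interval 0.02 to 0.68; unadjusted p = 0.0419, adjusted p = 0.9998, edgeR's quasi-likelihood test). The WT libraries of batch 2 were at 2.48, 3.33 and 3.88 CPM, which overlaps the knock-in range, and the ApoE4 libraries at 4.25, 2.63 and 3.50. Of the exon bases of *Il10rb*, 14.9% are shared with *Gm21970* on the same strand, as are 9.46% of those of *Ifnar2*, and counts there are uncertain.

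The other 3 receptor genes varied less. *Ifnar1* averaged 40.1 ± 1.86 CPM in WT, 39.7 ± 1.77 in APP-TKI and 40.6 ± 1.43 in DM (SD, n = 3 each). The log2 difference of the knock-in libraries was 0.00 for *Ifnar1*, -0.04 for *Ifnar2* and -0.03 for *Ifngr2*, with 95% intervals within 0.22 of 0 for all 3. Downstream genes of these receptors were taken from a list of 16 genes of interferon and interleukin-10 signalling, such as the kinases *Jak1* and *Tyk2*, the factor *Irf9* and the target *Ifit1*. Of these, 15 were tested, 0 passed and 0 had an unadjusted p under 0.05 between knock-in and WT libraries, with a median log2 difference of 0.06. The smallest p was that of *Jak2* (-0.06, unadjusted p = 0.222, adjusted p = 0.9998, edgeR's quasi-likelihood test). In DM against WT, 2 of the 15 had an unadjusted p under 0.05, *Ifit1* at 0.84 (adjusted p = 0.946) and *Ifit3* at 0.47 (adjusted p = 0.9999, edgeR's quasi-likelihood test). In ApoE4 against WT, 3 of the 15 had an unadjusted p under 0.05, among them *Ifit1* at -0.81 (adjusted p = 0.669) and *Ifit3* at -0.46 (adjusted p = 0.761, edgeR's quasi-likelihood test).

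Among kinases and signalling genes, *Btg3*, an antiproliferative protein of the BTG/Tob family, had the smallest p. It lies on the centromeric side, at -6.57 Mb from *App*. Its level was 10.4, 10.98 and 10.9 CPM in WT and 10.4, 10.6 and 11.3 in APP-TKI, and 8.68, 7.54 and 7.30 in DM. All 3 DM libraries were below all 6 other libraries of the batch, while WT and APP-TKI did not part. The log2 difference was -0.46 ± 0.10 (SE) for DM against WT (95% interval -0.67 to -0.24; unadjusted p = 6.8e-04, adjusted p = 0.384) and -0.46 ± 0.10 for DM against APP-TKI (unadjusted p = 6.7e-04, adjusted p = 0.637), both by edgeR's quasi-likelihood test. For APP-TKI against WT it was 0.00 (95% interval -0.21 to 0.22).

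*Btg3* was the one member whose call depended on the test. The study's own test was the robust likelihood ratio test of edgeR, with calls at an adjusted p under 0.1. Here that test called *Btg3* in DM against WT and in DM against APP-TKI (adjusted p = 0.0632 in the latter). For DM against WT, the robust likelihood ratio test of edgeR gave an adjusted p of 0.0265 and the Wald test of DESeq2 one of 0.0448, over a range of 0.0265 to 0.9999 in 20 alternatives, of which 4 called it. For DM against APP-TKI the range was 0.0564 to 1.0, and 3 of 20 alternatives called it. The log2 difference from WT stayed between -0.56 and -0.41 in all 20. In batch 2, *Btg3* was at 7.74, 9.53 and 7.78 CPM in WT and 7.76, 9.42 and 9.30 in ApoE4, so that the WT levels of the batches themselves were apart, and the ApoE4 libraries overlapped their WT (log2 difference 0.08, 95% interval -0.22 to 0.38). *Btg3* shares 695 exon bases with *Cxadr* on the opposite strand, 17.3% of its exons. *Cxadr*, the coxsackievirus and adenovirus receptor, averaged 32.6 ± 4.91 CPM in WT, 33.8 ± 2.28 in APP-TKI and 33.3 ± 4.12 in DM.

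The other 5 genes of this group passed in no comparison. *Tiam1*, an activator of Rac, averaged 101 ± 4.12 CPM in WT, 115 ± 10.99 in APP-TKI and 107 ± 7.88 in DM. Its 3 APP-TKI libraries lay above WT, with a log2 difference of 0.19 (unadjusted p = 0.0355, adjusted p = 0.9998, edgeR's quasi-likelihood test). *Hunk*, a kinase of the SNF1 family, averaged 35.4 ± 2.32 CPM in WT, 38.5 ± 1.496 in APP-TKI and 37.4 ± 2.75 in DM. *Dyrk1a*, the dosage-sensitive kinase of Down syndrome, had a log2 difference of -0.03 between knock-in and WT libraries and a 95% interval from -0.14 to 0.08. *Rcan1*, an inhibitor of calcineurin, was at 0.09 (95% interval -0.04 to 0.22), and 0 of the 9 tested genes of calcineurin and NFAT passed, with a median of -0.00. *Samsn1*, an adaptor of haematopoietic cells, was at 0.07 with an interval from -0.43 to 0.57.

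Of the 5 tested genes of adhesion and the cell surface, 0 passed and 4 were above 0 in the knock-in libraries. *Ncam2*, an adhesion molecule of axons, was at 94.6, 107 and 86.4 CPM in WT, 93.4, 86.1 and 117 in APP-TKI and 101, 114 and 107 in DM, a log2 difference of 0.10 (95% interval -0.11 to 0.31). *Eva1c*, a heparin-binding membrane protein, averaged 1.18 ± 0.385 CPM in WT, 1.27 ± 0.235 in APP-TKI and 1.42 ± 0.105 in DM.

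Of the 7 DNA-binding factors and cofactors, 0 passed, with 4 above 0 and 3 below. *Olig1*, a factor of oligodendrocyte development, averaged 93.0 ± 2.80 CPM in WT, 103 ± 14.4 in APP-TKI and 101 ± 2.08 in DM, and its DM libraries did not overlap WT. Its neighbour *Olig2* averaged 26.7 ± 0.849 CPM in WT, 26.9 ± 1.64 in APP-TKI and 27.9 ± 1.13 in DM. The 10 oligodendrocyte markers summed to 3936 to 5810 CPM in WT, 4204 to 6345 in APP-TKI and 5017 to 5927 in DM, and the 5 precursor markers to 173 to 209, 176 to 209 and 182 to 191 CPM. Their part in the *Olig1* values was not tested. *Nrip1*, a corepressor of nuclear receptors, averaged 53.8 ± 1.64 CPM in WT, 50.3 ± 4.87 in APP-TKI and 50.3 ± 1.96 in DM, and its DM libraries were all below WT. *Bach1*, a repressor of haem oxygenase and other antioxidant genes, was at 0.01 (95% interval -0.15 to 0.17).

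Among chromatin and methyltransferase genes, 3 of 4 were tested and 0 passed. *Morc3*, a nuclear ATPase, averaged 30.9 ± 0.693 CPM in WT, 30.1 ± 1.09 in APP-TKI and 28.9 ± 1.90 in DM. *N6amt1*, a methyltransferase of the translation termination factor, averaged 24.9 ± 1.45, 24.2 ± 1.79 and 23.4 ± 0.924 CPM. *Setd4*, a SET domain protein, spread most among them, from 9.53 to 16.8 CPM within WT alone.

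Of the 6 genes of protein folding and ubiquitin, 0 passed. *Ttc3* averaged 1102 ± 36.7 CPM in WT, 1049 ± 72.4 in APP-TKI and 1067 ± 77.7 in DM. *Hspa13* averaged 58.5 ± 3.31 CPM in WT, 53.9 ± 5.78 in APP-TKI and 57.4 ± 5.42 in DM. *Ltn1*, the ubiquitin ligase that tags unfinished chains on stalled ribosomes, differed by -0.01 (95% interval -0.12 to 0.10), *Cct8* by -0.04 (-0.23 to 0.14), and the deubiquitinases *Usp16* and *Usp25* by 0.01 and 0.03 on the log2 scale. Of the 7 other CCT subunits, 0 passed, with a median of -0.03. Of 7 tested partners of *Ltn1* in ribosome quality control, 0 passed, with a median of -0.00.

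Of the 5 synaptic and channel members, none passed in any of the 6 comparisons. *Synj1* averaged 502 ± 8.20 CPM in WT, 492 ± 16.4 in APP-TKI and 481 ± 11.8 in DM, and its DM libraries were all below WT by a small margin, with 494.3 CPM in the highest DM library and 494.7 in the lowest WT library. *Itsn1*, a scaffold of endocytosis, differed by -0.01 (95% interval -0.12 to 0.10) between knock-in and WT libraries. Of the 10 further genes of synaptic endocytosis, such as *Dnm1*, *Sh3gl2* and *Amph*, 0 passed, with a median of -0.02. *Grik1*, a kainate receptor subunit, averaged 17.4 ± 1.83 CPM in WT, 19.0 ± 2.499 in APP-TKI and 19.5 ± 3.23 in DM, and *Kcnj6* averaged 45.2 ± 5.03, 44.6 ± 5.43 and 41.0 ± 1.44 CPM. *Slc5a3*, the inositol transporter, differed by -0.07 (95% interval -0.25 to 0.10). The 95% interval of the log2 difference of knock-in from WT libraries was -0.11 to 0.40 for *Grik1* and -0.26 to 0.10 for *Kcnj6*. The 3 other GIRK subunits were all above 0, with *Kcnj9* at 0.14 (unadjusted p = 0.0131, adjusted p = 0.990) and *Kcnj5* at 0.65 (unadjusted p = 0.101, adjusted p = 0.9998, edgeR's quasi-likelihood test), and the 6 kainate receptor genes had a median of -0.01 with 0 passing.

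Among the 6 enzymes, *Sod1*, the cytosolic superoxide dismutase, was at 133, 136 and 143 CPM in WT, 136, 131 and 136 in APP-TKI, and 139, 147 and 155 in DM. *Cbr1*, a carbonyl reductase, averaged 45.6 ± 2.01 CPM in WT, 46.6 ± 1.43 in APP-TKI and 47.6 ± 1.78 in DM, and *Gart*, which catalyses 3 steps of purine synthesis, averaged 32.7 ± 1.86, 32.7 ± 0.573 and 32.4 ± 0.521 CPM. No enzyme passed, and 3 were above and 3 below 0. Of the 9 other genes that remove superoxide and peroxide and the 5 others of purine synthesis, 0 passed in the same comparison, with medians of 0.04 and 0.01.

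The remaining members differed by little. *Son*, a nuclear speckle protein, averaged 523 ± 67.3 CPM in WT, 538 ± 22.7 in APP-TKI and 503 ± 57.4 in DM. *Scaf4*, which binds RNA polymerase at the end of genes, averaged 47.9 ± 6.07, 47.7 ± 6.41 and 42.7 ± 6.21 CPM, and *Urb1*, of ribosome biogenesis, differed by 0.01 (95% interval -0.22 to 0.24). *Donson*, of DNA replication, averaged 17.6 ± 3.29, 19.0 ± 1.59 and 16.2 ± 2.46 CPM. *Tmem50b* averaged 79.0 ± 0.565, 81.8 ± 6.05 and 86.2 ± 6.79 CPM, and *Rwdd2b* 8.47 ± 0.572, 9.07 ± 0.444 and 8.57 ± 1.03 CPM.

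Taken apart, the knock-in groups gave the same count of 0 in edgeR's quasi-likelihood test. For APP-TKI against WT, 0 members passed beside 0.00618% of all tested genes (1 gene), 2 of 51 (*Adamts1* and *Tiam1*) had an unadjusted p under 0.05 beside 3.56%, and 4 (*Adamts1*, *Il10rb*, *Mis18a* and *Tiam1*) had libraries that did not overlap WT beside 8.27%. The 4 were all higher in APP-TKI. For DM against WT, 0 members passed beside 0.0124% (2 genes), 1 (*Btg3*) had an unadjusted p under 0.05 beside 4.55%, and 6 did not overlap beside 10.4%. Of the 6, *Il10rb* and *Olig1* were higher in DM, and *Btg3*, *Mis18a*, *Nrip1* and *Synj1* were lower. Both comparisons share the WT libraries. Beside these values, 6 of 10 endothelial, 5 of 6 ependymal and 4 of 7 tested fibroblast markers had an unadjusted p under 0.05 in DM against WT, with median log2 differences of 0.39, 1.16 and 0.64, and their part in the values of the members was not tested. The median log2 difference of the members was 0.04 in APP-TKI and -0.01 in DM, against 0.01 over all tested genes in both. In APP-TKI it fell to -0.00 without the third WT library.

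DM was then compared with APP-TKI, which has the same *App* alleles on both chromosomes, so that the mice differ in *APOE4*. No member passed, and 0% of all tested genes did. Unadjusted p under 0.05 was found for 3 members (*Btg3*, *Hlcs* and *Sod1*) beside 3.78% of tested genes, and 6 members had libraries that did not overlap beside 7.93%. DESeq2 and the robust likelihood ratio test each called 1 member, *Btg3*. Beside these values, 8 of 10 endothelial markers (median log2 difference 0.60, all 10 higher in DM), 3 of 7 tested fibroblast markers (median 0.50) and 1 of 6 ependymal markers (median 0.55) had an unadjusted p under 0.05 in the same comparison. Their part in the values of the members was not tested.

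Of the 3 members that were higher in DM without overlap, *Sod1* (values above) had a log2 difference of 0.13 (95% interval 0.00 to 0.26; unadjusted p = 0.0479, adjusted p = 0.987, edgeR's quasi-likelihood test). *Ifnar2* was at 9.47, 9.26 and 9.11 CPM in APP-TKI and 10.99, 10.7 and 9.77 in DM, a difference of 0.18 (-0.03 to 0.39). *Bach1* was at 15.8, 14.8 and 16.5 CPM in APP-TKI and 17.6, 16.9 and 17.9 in DM, a difference of 0.15 (-0.03 to 0.34). The WT libraries overlapped the DM range for all 3, and for *Bach1* spanned it, at 133 to 143 CPM for *Sod1*, 9.30 to 10.7 for *Ifnar2* and 15.6 to 18.0 for *Bach1*.

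On the lower side stood *Btg3*, *Hlcs* and *Mis18a*. *Hlcs*, which attaches biotin to carboxylases, was at 12.6, 12.8 and 12.2 CPM in APP-TKI and 10.9, 10.9 and 10.6 in DM, a difference of -0.21 (95% interval -0.41 to -0.01; unadjusted p = 0.0376, adjusted p = 0.987, edgeR's quasi-likelihood test). *Mis18a*, which loads the centromeric histone, was at 7.77, 7.47 and 7.36 CPM in APP-TKI and 6.66, 6.40 and 6.62 in DM, a difference of -0.20 (-0.41 to 0.01). Its WT libraries, at 7.08, 6.94 and 7.06 CPM, stood between the groups without touching either. Those of *Hlcs*, at 10.6 to 12.6 CPM, overlapped both.

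The ApoE4 mice have no engineered allele on chromosome 16, so their comparison with WT leaves *App* untouched. It also differs in *APOE4* and comes from another batch, in which some libraries stand apart in marker levels (above). No member passed against the WT of batch 2, where 0% of all tested genes did. Unadjusted p under 0.05 was found for 3 members (*Runx1*, *Cbr3* and *Ncam2*) beside 5.99% of all tested genes, and 7 did not overlap beside 12.2%. DESeq2 and the robust likelihood ratio test called 0 members here. The median log2 difference of the members was -0.02, beside -0.01 over all tested genes.

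*Runx1*, a factor of blood and microglial development, had the widest difference. It was at 0.987, 0.940 and 1.02 CPM in WT and 1.497, 1.484 and 1.485 in ApoE4, with no overlap. These levels are near the detection filter, and the gene had 646 counts over all 15 libraries. With so few counts, the closeness of the ApoE4 libraries to each other is not a measure of precision. The log2 difference was 0.60 ± 0.16 (SE; 95% interval 0.24 to 0.96; unadjusted p = 0.0054, adjusted p = 0.761, edgeR's quasi-likelihood test), and it stayed between 0.57 and 0.63 when each library was left out, the 3 that stand apart in choroid plexus, striatal or thalamic markers included. In batch 1, *Runx1* ran from 0.932 to 1.30 CPM in WT, 1.06 to 1.25 in APP-TKI and 0.687 to 1.14 in DM. The 7 microglial markers summed to 326 to 358 CPM in the WT of batch 2 and 323 to 344 CPM in ApoE4, and their part in the *Runx1* values was not tested.

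*Cbr3*, a second carbonyl reductase, was at 7.84, 7.60 and 7.29 CPM in WT and 8.78, 8.49 and 9.91 in ApoE4, a difference of 0.26 (unadjusted p = 0.0329, adjusted p = 0.761, edgeR's quasi-likelihood test) that ran from 0.19 to 0.30 with libraries left out. *Itsn1* was at 199, 192 and 210 CPM in WT and 220, 212 and 215 in ApoE4, a difference of 0.11 (0.08 to 0.14 with libraries left out). These and *Runx1* are the members that were higher without overlap.

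Of those that were lower, *Ncam2* was at 80.6, 94.6 and 91.3 CPM in WT and 73.4, 80.4 and 79.8 in ApoE4, with the highest ApoE4 library just under the lowest WT library. The difference was -0.19 (unadjusted p = 0.0282, adjusted p = 0.761, edgeR's quasi-likelihood test; -0.26 to -0.14 with libraries left out). *Cryzl1*, a quinone oxidoreductase-like enzyme, was at 65.7, 65.6 and 64.6 CPM in WT and 62.5, 61.6 and 60.6 in ApoE4, a difference of -0.08 (-0.10 to -0.07 with libraries left out). *Ifngr2* was at 53.7, 55.7 and 53.9 CPM in WT and 51.1, 52.6 and 50.4 in ApoE4, also a difference of -0.08 (-0.10 to -0.07). *Cxadr* was the 7th gene without overlap, at -0.10.

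The effect of the *App* knock-in (both groups minus WT of batch 1) was then set against the effect of *APOE4* alone (ApoE4 minus WT of batch 2) in one fit of all 15 libraries. No member differed at the adjusted threshold, and 0% of all tested genes did. Unadjusted p under 0.05 was found for 4 of 51 members beside 5.87%. Of these 4, *Runx1* had a difference between the effects of -0.67 (95% interval -1.26 to -0.07), *Adamts1* one of 0.40 (0.05 to 0.74), *Cbr3* one of -0.32 (-0.64 to -0.00) and *Btg3* one of -0.31 (-0.61 to -0.00). Their adjusted p values lay between 0.807 and 0.843 in edgeR's quasi-likelihood test. The robust likelihood ratio test and DESeq2 called 0 members.

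The spread of the members between libraries was measured next. The SD of a member within its group had a median of 0.107 on the log2 scale, beside 0.129 for all tested genes. Between the 4 batch 1 libraries with more long noncoding counts and the other 5, 10 members (19.6%) did not overlap, beside 22.4% of all tested genes. *Setd4*, *Paxbp1*, *Scaf4*, *Donson*, *Urb1*, *Son* and *Hunk* were higher in the 4 libraries, and *Cct8*, *Hspa13* and *Ttc3* were lower. *Setd4* was at 13.7 to 16.8 CPM in the 4 libraries and at 9.53 to 11.9 CPM in the other 5, and *Paxbp1*, which binds PAX factors, was at 73.2 to 88.0 against 56.5 to 64.8 CPM. *Cct8* was at 153 to 174 CPM in the 4 libraries and 182 to 202 CPM in the others. *Adamts1* and *Tiam1*, which had an unadjusted p under 0.05 in APP-TKI against WT, overlapped between the 2 sets of libraries. By their deviations from the group means they were 0.20 and 0.13 higher on the log2 scale in the 4 libraries. The part of this in their differences from WT was not tested. The 4 libraries comprise 1 WT, 2 APP-TKI and 1 DM library. Without them, 0 members passed between knock-in and WT libraries, where 283 of all tested genes did, and *Btg3* passed in DM against WT (-0.56, adjusted p = 0.0435) and against APP-TKI (-0.61, adjusted p = 0.0564, edgeR's quasi-likelihood test), in fits where the lone APP-TKI library was assumed to vary like the others.

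**Figure D4:**
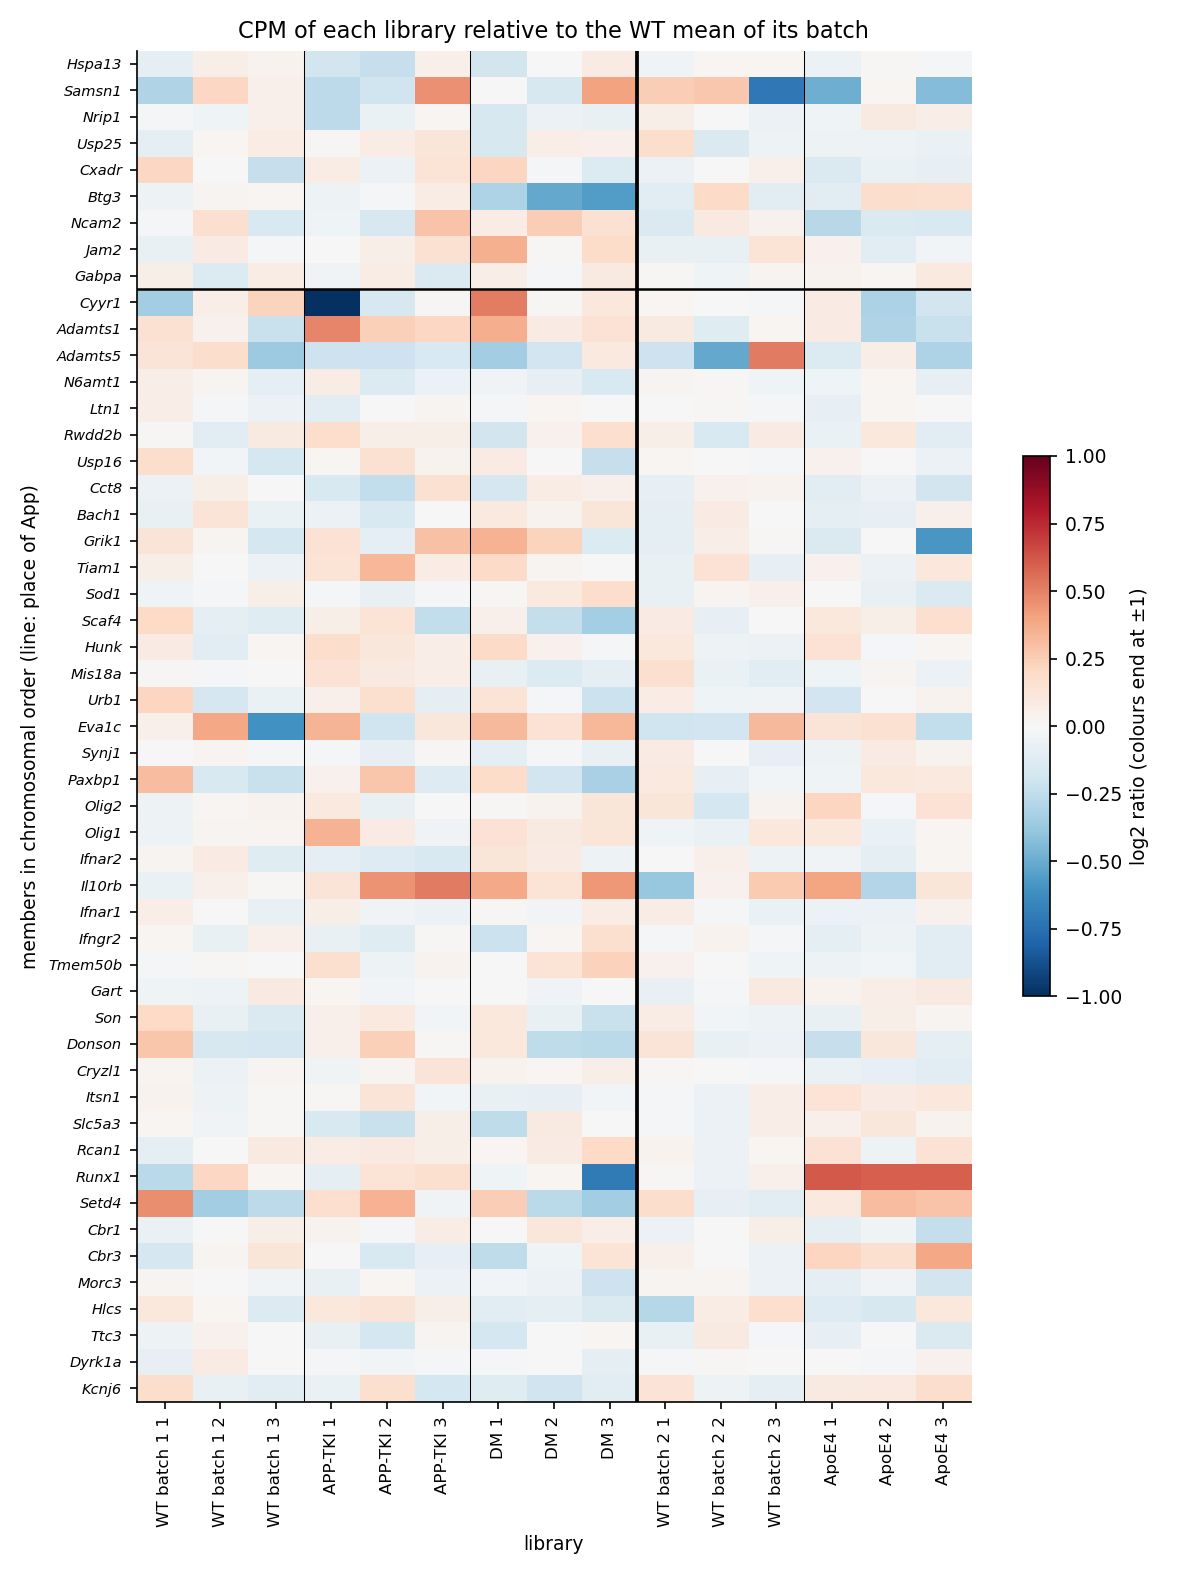
Log2 ratio of each library's CPM to the WT mean of its batch for the 51 tested genes, in chromosomal order; the horizontal line marks the place of *App* and the thick vertical line parts the batches. Of the 153 values per group, between 149 and 152 lie within 0.5 of 0. *Btg3* is lower across DM and *Runx1* higher across ApoE4, and no block of neighbouring genes visibly changes colour with the knock-in. The colour scale is wide, and a shift such as the median of 0.12 at 2.5 to 5 Mb would be faint on it.

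The 2 members below the filter were examined by their counts. *Chodl*, a C-type lectin of motor neurons, had 4, 4 and 5 counts in the WT libraries of batch 1, 2, 9 and 14 in APP-TKI, 12, 20 and 21 in DM, 3, 9 and 16 in the WT of batch 2 and 13, 28 and 40 in ApoE4 (given from lowest to highest). The DM libraries were all above the WT of their batch, and the ApoE4 libraries overlapped theirs. Fitted without a filter, its log2 difference was 1.38 ± 0.55 (SE) for both knock-in groups against WT (unadjusted p = 0.0121, adjusted p = 0.861). It was 0.88 ± 0.63 for APP-TKI against WT (unadjusted p = 0.167) and 1.88 ± 0.59 for DM against WT (unadjusted p = 0.0014, adjusted p = 0.207). For ApoE4 against WT it was 1.40 ± 0.49 (adjusted p = 0.889), all by edgeR's quasi-likelihood test. *Chaf1b*, a subunit of the chromatin assembly factor of dividing cells, had 4 to 12 counts in the WT of batch 1, 8 to 17 in APP-TKI, 8 to 13 in DM, 7 to 10 in the WT of batch 2 and 10 to 19 in ApoE4, with overlap throughout. At these counts, differences of the size seen for the other members were not detectable.

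Over the 9 lists of partner genes, 71 of 74 symbols were tested and 0 passed in each of the 6 comparisons. An unadjusted p under 0.05 was found for 1 of 71 between knock-in and WT libraries (*Kcnj9*, above), beside 4.33% of all tested genes, and for 1 in APP-TKI against WT, beside 3.56%. It was found for 6 in DM against WT, beside 4.55%, for 4 in DM against APP-TKI, beside 3.78%, for 8 in ApoE4 against WT, beside 5.99%, and for 7 in the difference of effects, beside 5.87%.

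In DM against APP-TKI, where *Sod1* was higher without overlap, 2 of the 9 other genes that remove superoxide and peroxide had an unadjusted p under 0.05. These were *Txn1*, thioredoxin, at 0.25 (unadjusted p = 0.0045, adjusted p = 0.987) and *Gpx1*, a glutathione peroxidase, at 0.21 (unadjusted p = 0.0243, adjusted p = 0.987, edgeR's quasi-likelihood test). The list had a median of 0.17 with 8 above 0, beside a median of 0.00 over all tested genes. Set against the WT of batch 1, the list median was 0.04 in DM, with 7 of 9 above 0. In APP-TKI it was -0.06, with 3 of 9 above 0. Against the WT of batch 2, ApoE4 mice had a list median of -0.05, with 4 genes above 0 and 5 below. *Txn1* was at -0.14 there (unadjusted p = 0.0181, adjusted p = 0.761, edgeR's quasi-likelihood test). In ApoE4 against WT, *Grik3* was at 0.35 (adjusted p = 0.761) and *Kcnj3*, another GIRK subunit, at -0.15 (adjusted p = 0.761, edgeR's quasi-likelihood test). In the same comparison all 5 striatal markers were higher, with a median of 2.00, and all 4 thalamic markers lower, with a median of -1.22. In each case a single library stood apart. ApoE4 3 had 662 CPM of striatal markers, against 69.3 to 107 CPM in the other libraries of the batch. WT 3 had 297 CPM of thalamic markers, against 66.1 to 136 CPM in the others. The part of these markers and libraries in the values of *Grik3* and *Kcnj3* was not tested.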

How the data were processed

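The libraries were directional and polyA-enriched. The authors deposited raw counts of reads for each gene. Their methods and the submitters' processing notes name Trimmomatic 0.39 for trimming, STAR 2.7.1a for alignment to a mouse genome extended by human *APOE*, and HTSeq 0.11.2 for counting. Whether HTSeq counted by strand was not given in the sources used here, which leaves overlapping genes, antisense pairs included, uncertain.

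From these counts, genes above 1 CPM in at least 3 of the 15 libraries were scaled by the upper quartile and tested by edgeR's quasi-likelihood test (edgeR 4.0.16 with limma 3.58.1 in R 4.3.3). Batch 1 (9 libraries) and batch 2 (6 libraries) were fitted apart, and all 15 together for the difference of effects. The threshold was an adjusted p under 0.1 (Benjamini-Hochberg) over the 16171 genes. Standard errors and 95% intervals come from these fits. The study used edgeR's robust likelihood ratio test, which served here as an alternative, as did DESeq2 1.42.0. Python 3.11.15 and matplotlib 3.10.9 drew the figures. Positions came from a GENCODE annotation of GRCm38, of another release than the authors', which held 55230 of the 55471 IDs. Distances run between the nearer gene ends.

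The members, the gene lists and the rule for named genes were chosen with earlier results of these data known. By that rule, values are given in every library for members called in any comparison, for members without overlap between both knock-in groups and WT (up to 8 in each direction), for those without overlap between ApoE4 and WT or DM and APP-TKI (up to 3 in each direction, by smallest p), and for the 2 tested genes nearest to *App* on each side. Up to 2 more per role group are given as mean ± SD, and up to 2 genes per partner list. Other members named, and the settings that call *Btg3*, were chosen after their values were seen.

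No libraries of a group were duplicates, since the chi-square per gene between them was 4.96 or more. Same-numbered libraries were checked as pairs by the correlation of their deviations from the group means. It was 0.446, 0.194 and 0.300 between DM and WT, each above 0.1, so that these libraries may be paired. The check cannot decide this, since libraries of different numbers were not compared. Libraries 2 and 3 were also the closest in both groups. Their chi-square per gene was 5.51 in WT and 4.96 in DM, against 17.5 to 22.7 with library 1. The main tests took all libraries as unpaired. The correlation ran from -0.320 to 0.229 for APP-TKI with WT, -0.117 to 0.225 for DM with APP-TKI and -0.273 to 0.0659 for ApoE4 with WT, which were not taken as pairs. Among the DM and WT libraries of batch 1, WT 1 and DM 1 had 2.88 and 2.86% of their counts in long noncoding genes. The others had 2.16 to 2.32%. The part of this share in the correlations between DM and WT was not tested. The tests were tried on simulated data. Alternatives were the robust likelihood ratio test, DESeq2, other scalings and filters, a replicate block, other sets of libraries and each library left out. The fit without the 4 libraries with more long noncoding counts was chosen after seeing the data.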

Additional observations from a re-analysis of the deposited data

How the results depend on the processing

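Over 123 combinations of comparison and alternative, 0 members were called in 116 and 1 in 7. The 1 was *Btg3* each time: in DM against WT by the robust likelihood ratio test, by DESeq2, without a filter and without the 4 libraries with more long noncoding counts, and in DM against APP-TKI by the first 2 and the last. These combinations were not independent. In each comparison, 1 of them was the main test at an adjusted p under 0.05, which could call none, since none passed 0.1. Many others were refits by the main test with each library left out. In those refits the count stayed at 0 in every comparison, while members with an unadjusted p under 0.05 ranged from 0 to 7. Over all tested genes, the calls in APP-TKI, DM and both against WT, DM against APP-TKI, ApoE4 against WT and the difference of effects (1, 2, 5, 0, 0 and 0) became 50, 136, 79, 53, 125 and 34 by the robust likelihood ratio test, 25, 50, 36, 18, 48 and 22 by DESeq2 and 83, 175, 113, 103, 9 and 278 without a filter. Without the 4 libraries the first 4 became 342, 131, 283 and 163. In DM against WT they ran from 1 to 29 with each library left out and were 30 with the 6 libraries of these groups alone, and for both against WT from 1 to 12, both highest without APP-TKI 2. The cause was not tested.

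With the replicate block, 0 members were called in each comparison, and the calls over all tested genes were 9, 11, 10, 1, 0 and 0 in the same order. In batch 1 the block covered all 9 libraries, APP-TKI included, whose numbers were not taken as pairs. DM and WT were not fitted as pairs on their own, so that pairing alone was not tested.

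The median log2 difference of the members in DM against WT was -0.028 with TMM scaling, -0.032 with the median of ratios and 0.032 without the 4 libraries. For both groups against WT it was -0.017 with the median of ratios and 0.023 without the 4 libraries, for DM against APP-TKI -0.044 without them, and for the difference of effects 0.0041 with TMM scaling and 0.0053 with the median of ratios. With each library left out it ran from -0.0022 to 0.037 in APP-TKI against WT, -0.015 to 0.037 in DM against WT, -0.024 to 0.015 for both, -0.021 to 0.018 in DM against APP-TKI, -0.020 to -0.0022 in ApoE4 against WT and -0.0049 to 0.053 for the difference of effects.

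The log2 difference of *Gabpa* in both groups against WT, near 0, turned negative by DESeq2 (-0.011), with TMM scaling (-0.0073), with the median of ratios (-0.011), without a filter (-0.011) and without the 4 libraries (-0.027), and ran from -0.057 to 0.045 with each library left out. That of *Cyyr1* ran from -0.20 to 0.078. Depth limits *Runx1*, *Cyyr1*, *Adamts5*, *Samsn1* and *Eva1c*, with 646 to 797 counts over the 15 libraries.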
